A study of Mus musculus with 17 samples.

Results

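Lymph node (LN) metastases of mice gave cultured cancer cell lines that were sorted by the surface protein CD44, and the CD44high and CD44low LN lines are compared here by bulk RNA-seq. The 4 LN libraries, 2 of CD44high and 2 of CD44low cells, were chosen by their labels from the 14 bulk libraries of a series of 17 samples. A gene was tested when at least 2 of the 4 LN libraries held 1 TPM (transcript abundance scaled to the same total in every library) or more, which left 12107 of 55450 genes. A gene was reported when both values of one group lay beyond both values of the other, and the gap is the distance between the nearest values of the groups on the log2(TPM + 1) scale.

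All lines came from 10 female FVB/NJ mice aged 10 to 12 weeks that carry MMTV-PyMT, a transgene in which a mammary tumor virus promoter drives the polyomavirus middle T oncogene in mammary epithelium. Cells were grown in culture for about a month and then sorted as CD44high/EpCAMhigh or CD44low/EpCAMhigh, so that high EpCAM was required of both groups. No treatment of any group is stated. Within each group the 2 libraries are clonal isolates from 2 mice, so each value belongs to a selected line and not to a whole metastasis. The same CD44 sort was applied to bone marrow (BM) and lung lines, with 2 libraries per group, and 2 libraries of mammary fat pad (MFP) tumor lines carry no CD44 label.

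CD44 is the receptor for hyaluronan, a sugar polymer of the matrix, and is widely used to mark cells with stem cell or invasive properties in mammary tumors. EpCAM is an adhesion protein of epithelial cells. The lymph node is usually the first organ that breast cancer cells reach.

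The mRNA of the sorting marker did not follow the labels. Cd44 measured 147 and 82.7 TPM in the lines labelled CD44low and 49.0 and 52.3 TPM in the lines labelled CD44high. Both CD44high values therefore lay below both CD44low values, with a gap of 0.65, and the difference (CD44high minus CD44low) was -1.11 ± 0.43 on the log2 scale (SE, n = 2 against 2 lines). That difference did not pass the test (limma, adjusted p = 0.376). This SE and every later one comes from the limma fit, which pools the spread over all 14 libraries. None of them is the spread of the LN lines alone. Epcam measured 315 and 567 TPM in CD44low and 941 and 820 TPM in CD44high lines (log2 difference 1.05 ± 0.34, adjusted p = 0.272). Surface protein is not in these files, so "CD44high" and "CD44low" below are the labels of the lines.

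Both groups expressed epithelial markers, most leukocyte and all endothelial markers stayed under 1 TPM, and some mesenchymal markers were present. Of 12 luminal epithelial markers 10 were tested, while Krt19 was listed at 0 and Cldn7 at 0 to 0.27 TPM, and the summed level of the list was 2259 and 3408 TPM in CD44low and 4850 and 4537 TPM in CD44high lines. All 7 endothelial markers stayed under 1 TPM in every LN library, as did 9 of 11 leukocyte markers, among them Ptprc, the pan-leukocyte gene, at 0 to 0.06 TPM. Of 17 fibroblast or mesenchymal markers 7 were under 1 TPM in all LN libraries, including the collagen gene Col3a1 at 0 to 0.02 TPM, and 9 were tested. Vim, an intermediate filament gene also used by cultured epithelial cells, measured 297 and 400 TPM in CD44low and 364 and 384 TPM in CD44high lines. The mesenchymal transcription factor genes Prrx1, at 8.11 to 24.1 TPM, Zeb2, at 4.10 to 11.9 TPM, and Zeb1, at 1.32 to 5.27 TPM, were also detected in all 4 libraries, as was the receptor gene Pdgfrb at 1.34 to 6.33 TPM. Their part in the differences below was not tested.

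The CD44low lines differed more from each other than the CD44high lines did. The median absolute difference between the libraries of a group was 0.531 in CD44low and 0.215 in CD44high on the log2(TPM + 1) scale, and 443 against 169 genes lay more than 2 apart. The Spearman correlation across the genes tested, which are not independent replicates, was 0.903 between the CD44low libraries and 0.950 between the CD44high libraries. Between the groups it was 0.914 and 0.932 for the first and 0.908 and 0.908 for the second CD44low line, so each CD44low line was closer to both CD44high lines than to the other CD44low line. Mitochondrial genes took 6.64% to 9.65% of TPM in the 4 libraries. TPM keeps no depth, of which only a minimum of 10 M reads per library is stated.

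Between the groups, 26 genes were called higher and 15 lower in CD44high lines, 0.215% and 0.124% of the genes tested. A call required an adjusted p (Benjamini-Hochberg) under 0.05 in limma and an absolute log2 difference over 2. The model was fitted to all 14 libraries, so that 7 groups share an estimate of the spread. Groups in which a gene was at or near 0 add little to that estimate. Among called genes, Cnmd was at 0 in all lung libraries, and Acss1 in all lung and MFP libraries. For such genes the SE can be smaller than the spread of the LN lines. All 41 called genes had groups that did not overlap, with gaps of 1.46 to 5.67 for the higher and 1.36 to 5.21 for the lower genes. A larger set was merely separated. Both CD44high values lay above in 1298 genes (10.7%) and below in 3537 (29.2%), but a gap of 1 or more was reached by 113 (0.933%) and 137 (1.13%) only. The median difference of all genes was -0.16, and after median-ratio scaling 2690 genes (22.2%) lay above and 2201 (18.2%) below, so the excess of separated genes on the lower side depended on the scaling. In bulk RNA, fewer cells with a gene and less RNA per cell cannot be told apart. The log2(TPM + 1) scale understates the fold of genes at low TPM. The filter fixed the order of 148 genes above and 217 below, which were under 1 TPM in both libraries of the lower group, among them 5 of the 26 genes called higher (Il1f6, Atp6v1b1, Acss1, Spaar and Gm16550) and 8 of the 15 called lower (Zfp969 and the 7 small RNA genes).

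The size of the called set rested on the fit. With the 4 LN libraries alone 1 gene was called in each direction, and an exact permutation test of 2 against 2 lines cannot go below p = 0.333. Without the first CD44high line 5 genes were called higher and 7 lower, and without the second 16 and 11. Without the first CD44low line the counts were 70 and 22, and without the second 64 and 37. Calls of 11 genes were kept whichever LN library was left out. These were Slc39a4, Fgfbp1, Ccl20, Col2a1 and Spaar on the higher side, Id1 and Id3 on the lower side, and 4 genes of small RNAs described further on. None of the 11 was called with the 4 LN libraries alone, where of the 41 genes only the pseudogene Gm16550 was, and Ccl20 and Spaar were also not called with the 8 LN and BM libraries. Col2a1 was also not called with 0.1 in place of 1 added to TPM. A further 114 genes had absolute differences over 2 and were not called, 24 of them with overlapping groups.

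**Figure D1:**
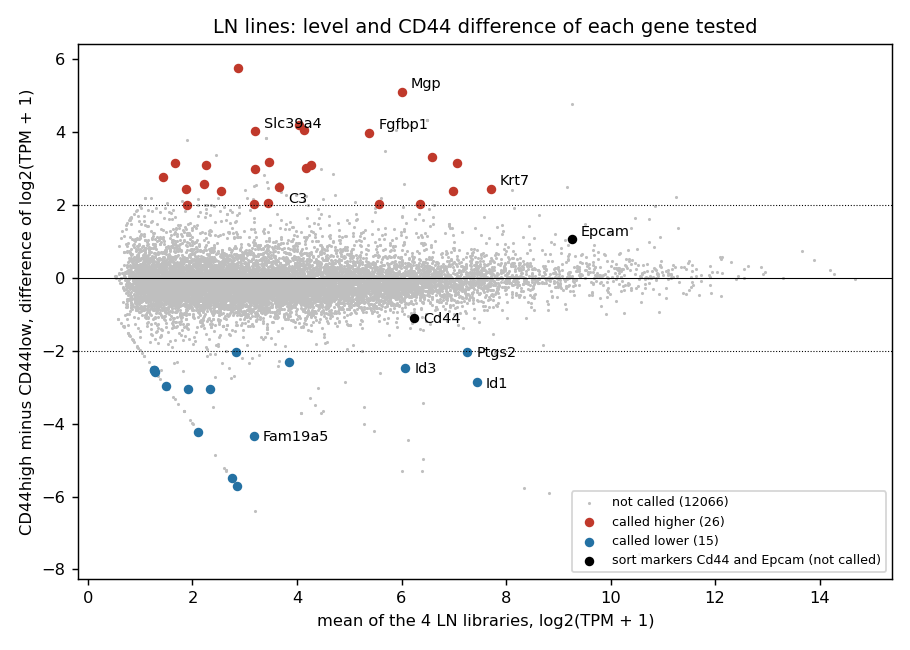
Each point is a gene tested in the LN lines, with its mean level over the 4 libraries (x, log2(TPM + 1)) and the CD44high minus CD44low difference (y, log2 scale). The 26 red and 15 blue genes were called, dotted lines mark differences of 2 and -2, and Cd44 sits below 0 while Epcam sits above it.

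Among genes higher in CD44high lines, a zinc importer and a growth factor carrier had the widest gaps of the protein-coding genes called. Slc39a4 (ENSMUSG00000063354.7; chr15:76612383-76617384, minus strand, mm10), the zinc transporter ZIP4, measured 1.32 and 1.26 TPM in CD44low and 39.8 and 32.3 TPM in CD44high lines. The log2 difference was 4.01 ± 0.32 (adjusted p = 0.000379, limma) and the gap 3.84. Fgfbp1 (ENSMUSG00000048373.8; chr5:43978858-43981779, minus strand), a secreted protein that releases fibroblast growth factors from the matrix, measured 7.56 and 11.99 TPM against 161 and 167 TPM. Its log2 difference was 3.97 ± 0.33, with a gap of 3.64. Neither gene had a CD44low value near any CD44high value.

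Among the other genes called higher were 5 with known roles in cartilage or matrix, which were put together after their values were seen and form no tested list. Col2a1, the type II collagen of cartilage, measured 49.7 and 60.4 TPM in CD44low and 282 and 300 TPM in CD44high lines (log2 difference 2.39 ± 0.24, gap 2.20). Cnmd, which encodes the cartilage glycoprotein chondromodulin, measured 0.91 and 8.66 TPM against 75.8 and 64.9 TPM (difference 4.05 ± 0.57). Mgp, an inhibitor of calcification, measured 3.58 and 25.4 TPM against 628 and 222 TPM (difference 5.09 ± 0.93, adjusted p = 0.0445). The lines of each group were well apart for Mgp and Cnmd too, but they differed several-fold within CD44low, and the call of Mgp was lost in 3 of the 4 leave-outs (3.83 to 6.35) and that of Cnmd without either CD44high line (2.88 to 5.22 over the 4). Postn, the matrix protein periostin, measured 3.09 and 3.92 against 23.6 and 12.6 TPM, and Enpp1, an enzyme that makes pyrophosphate outside the cell, 4.76 and 4 against 23.1 and 19.1 TPM. Postn and Enpp1 were called, with differences of 2.03 and 2.04, and the call of Postn was lost without the first CD44low or the first CD44high line and that of Enpp1 in every leave-out.

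A further 5 of the genes called higher encode cytokines or a cytokine antagonist, and were put together after their values were seen. Ccl20, the chemokine ligand of CCR6, measured 1.28 and 0.18 TPM in CD44low and 13.2 and 12.9 TPM in CD44high lines, a log2 difference of 3.10 ± 0.34 (adjusted p = 0.00309). Cxcl5, a neutrophil chemokine, measured 55.9 and 15.6 TPM against 385 and 234 TPM (difference 3.29), and Ccl9 0.53 and 1.37 TPM against 13.3 and 7.98 TPM (difference 2.57). Il1f6, the gene of interleukin 36 alpha, measured 0 and 0.15 TPM against 9.25 and 7.68 TPM (difference 3.14 ± 0.37), and Il1rn, the interleukin 1 receptor antagonist, 3.37 and 2.07 TPM against 43.1 and 23.6 TPM (difference 3.17 ± 0.52). None of these 5 genes overlapped between groups, an order that the filter fixed for Il1f6, and Ccl20 alone among them kept its call in all 4 leave-outs. Il1f6 lost its call without the first CD44high line only, and Cxcl5, Ccl9 and Il1rn lost theirs in 3 of 4, with differences of 2.24 to 4.18.

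Of 21 tested chemokine and cytokine genes, 3 were called higher (Ccl9, Ccl20, Cxcl5), beside 0.215% of all genes, and none was called lower. Both values lay above in 8 and below in 5, and 8 overlapped. The share above was 38.1%, beside 10.7% of all genes. After scaling 12 lay above (57.1%, beside 22.2% of all genes) and 2 below (9.52%, beside 18.2%). Members below included Il18, at 4.83 and 18.1 TPM against 1.95 and 2 TPM, and Ccl5, at 8.07 and 25.1 TPM against 6.98 and 4.64 TPM. Neither passed the test (adjusted p = 0.158 and 0.453).

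Secreted acute-phase and antimicrobial proteins, which epithelia release during infection and inflammation, lay almost uniformly above. Of the 24 genes listed 14 were tested, and 13 had both CD44high values above both CD44low values (92.9%, beside 10.7% of all genes), with 7 gaps of 1 or more and a median difference of 1.85. The count was the same after scaling, beside 22.2% of all genes above. The other 10 were under 1 TPM in all 4 libraries. Saa3, Cfb and Pigr were under 1 TPM in both CD44low lines and entered through the CD44high lines, so that the filter fixed their order, and 10 of the remaining 11 lay above. The only member below was Lyz2, a lysozyme gene of 3.36 and 4.28 TPM against 1.19 and 0.97 TPM. Of the 13 only C3 and Wfdc18 were called. C3, the central complement protein, measured 5.02 and 3.68 TPM against 30.5 and 27.2 TPM (difference 2.49 ± 0.43, adjusted p = 0.0348), and Wfdc18, a small secreted protein with a whey acidic protein domain, 30.7 and 62.4 TPM against 508 and 302 TPM (difference 3.13 ± 0.44). The call of C3 was lost in every leave-out, with a difference of 2.31 to 2.67, and that of Wfdc18 without the first CD44high line. Lcn2, the iron-siderophore binding protein lipocalin 2, had the highest level of these genes in CD44high lines, at 46.0 and 296 TPM against 3753 and 2686 TPM, and its difference of 4.75 ± 0.99 was not called (adjusted p = 0.0715). Slpi, a protease inhibitor of mucosal fluids, measured 225 and 93.5 TPM against 642 and 474 TPM (adjusted p = 0.116). Pglyrp1, a bactericidal peptidoglycan-binding protein outside that list, measured 0.55 and 8.43 TPM against 91.1 and 52.2 TPM and was called (difference 4.19 ± 0.73), a call lost in 3 of 4 leave-outs (2.89 to 5.50).

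Upstream sequences of these secreted-protein genes are shown for the 6 whose window held a match to the C/EBP letters below, of which C3 alone was called. RefSeq windows from 250 bases before to 50 bases after a transcription start (GRCm38.p6) were found for 11 of the 14 tested genes and searched on both strands for 4 motifs. The letters TTGCNNAA, a loose form of the site read by C/EBP factors, which take part in acute-phase gene control, were present in 6 of the 11, beside 9.41% of the 8644 tested genes with a window and 10.8% of all 32851 windows. The NF-kB motif was in 0 of the 11 (1.805% of tested genes), TGANTCA, the AP-1 site, in 1 (6.06%) and GGCGCC, a GC-rich SMAD site, in 1 (25.4%). None of the 4 motifs contains another. The 6 matches stand in the stretches below, read 5′ to 3′ on the strand of the gene, with TTGCNNAA or its reverse complement in capitals.
C3, chr17:57228148-57228207, minus strand, motif starting 45 bases before the start: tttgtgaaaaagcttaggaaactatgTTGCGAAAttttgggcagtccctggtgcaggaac
Cp, chr3:19957153-19957212, plus strand, 70 bases before: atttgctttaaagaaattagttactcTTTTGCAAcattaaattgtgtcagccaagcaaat
Lcn2, chr2:32387922-32387981, minus strand, 216 bases before: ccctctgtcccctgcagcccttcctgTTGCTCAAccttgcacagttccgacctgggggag
Ltf, chr9:111019191-111019250, plus strand, 75 bases before: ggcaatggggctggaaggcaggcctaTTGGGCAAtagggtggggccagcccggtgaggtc
Saa3, chr7:46715742-46715801, minus strand, 99 bases before: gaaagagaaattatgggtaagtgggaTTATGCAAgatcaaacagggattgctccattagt
Slpi, chr2:164356715-164356757, minus strand, 241 bases before: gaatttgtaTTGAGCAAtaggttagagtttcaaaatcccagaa
The matches are a description of letters in these windows and were not tested as binding sites. Among the 26 genes called higher, 20 had a window, and TTGCNNAA was in 4 of them.

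The other genes called higher had varied roles. Cbr2, a carbonyl reductase, measured 4.56 and 6.15 TPM against 58.9 and 42.3 TPM (difference 3.01 ± 0.36), and its call was lost without the first CD44high line. Krt7, a keratin of simple epithelium, measured 59.1 and 133 TPM against 465 and 505 TPM (difference 2.44 ± 0.42). Nkd2, which dampens Wnt signaling, measured 17.99 and 28.1 TPM against 93.7 and 95.6 TPM (difference 2.02 ± 0.30), and Atp6v1b1, the proton pump subunit of acid-secreting epithelia, 0 and 0.08 TPM against 11.3 and 3.09 TPM (difference 2.77 ± 0.52, adjusted p = 0.048). Krt7, Nkd2 and Atp6v1b1 each lost the call in 3 of 4 leave-outs, with differences of 1.72 to 3.56. The remaining called genes were named after their values were seen. They were Ckmt1 and Acss1, for mitochondrial creatine kinase and acetate-CoA ligase, Ugp2, for UDP-glucose synthesis, Enpp3, Spaar, 0610040J01Rik and the processed pseudogene Gm16550. Spaar measured 0.32 and 0.90 TPM against 8.27 and 6.93 TPM. Gm16550, whose reads may be shared with its parent gene, was listed at 0 in both CD44low lines and at 55.1 and 49.8 TPM in the CD44high lines.

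Called genes lay as neighbours on the chromosome in 3 pairs, all in the same direction. Il1f6 and Il1rn, of the interleukin 1 cluster on chromosome 2, are 111 kb apart. Ccl9 and Wfdc18 on chromosome 11 are 130 kb apart, and Enpp1 and Enpp3 on chromosome 10 are 60.2 kb apart. The 41 called genes were spread over 15 chromosomes.

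**Figure D2:**
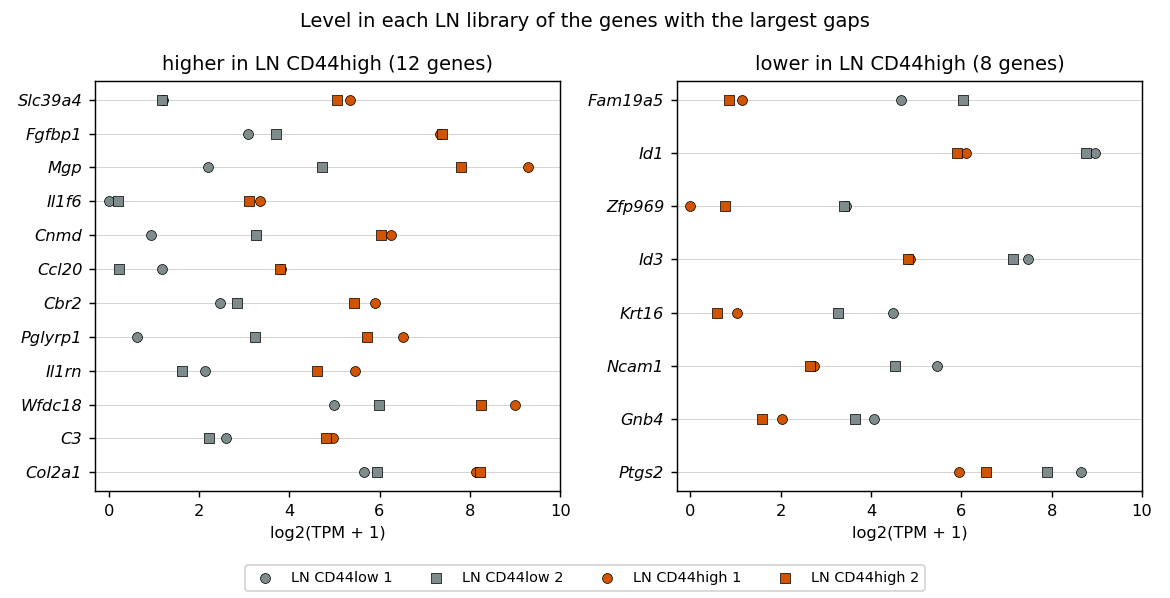
Level (x, log2(TPM + 1)) in each of the 4 LN libraries of the 12 genes with the largest gaps above and the 8 below among called, named, protein-coding genes. Grey symbols are CD44low and orange symbols CD44high lines, and in no row do the colors overlap.

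On the lower side stood the Id genes, inhibitors of basic helix-loop-helix transcription factors and well-known targets of bone morphogenetic protein (BMP) signaling. Id1 (ENSMUSG00000042745.9; chr2:152736251-152737410, plus strand) measured 500 and 435 TPM in CD44low and 68.0 and 58.6 TPM in CD44high lines, a log2 difference of -2.87 ± 0.24 (adjusted p = 0.000379) with a gap of 2.66. Id3 (ENSMUSG00000007872.3; chr4:136143497-136145755, plus strand) measured 177 and 140 TPM against 27.9 and 27.4 TPM, a difference of -2.47 ± 0.21 with a gap of 2.29. Both lay far apart between the groups at high levels. Id2 went the same way, at 524 and 1200 TPM against 270 and 182 TPM, without being called (difference -1.83 ± 0.43, adjusted p = 0.111).

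Other genes of TGF-beta and BMP signaling also lay below. Of 28 tested members, 2 were called lower (Id1 and Id3, beside 0.124% of all genes) and none higher. Both CD44high values lay below in 15 (53.6%, beside 29.2% of all genes) and above in 1 (Fst, an activin antagonist), and 12 overlapped. The filter fixed the order of 1 of the 15, which left 14 of 27 below. After scaling 15 lay below and 6 above, beside 18.2% and 22.2% of all genes. Inhba, the activin A subunit, measured 157 and 88.3 TPM against 16.4 and 20.95 TPM (difference -2.60 ± 0.55, adjusted p = 0.0715). Smad7, the inhibitory SMAD induced by the pathway, measured 20.5 and 10.4 TPM against 3 and 3.66 TPM (adjusted p = 0.253), and Bmp7, a BMP ligand, 12.7 and 6.23 TPM against 2.84 and 3.28 TPM (adjusted p = 0.153). The signal transducers Smad2, Smad3 and Smad4 had overlapping groups.

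The other named genes called lower had separate roles. Fam19a5, a secreted chemokine-like protein also called TAFA5, measured 24.1 and 64.3 TPM against 1.22 and 0.82 TPM (difference -4.33 ± 0.52, adjusted p = 0.0038), the widest gap of the lower genes named by rule at 3.50. Ptgs2, which encodes the prostaglandin synthase COX-2, measured 402 and 238 TPM against 60.6 and 92.3 TPM (difference -2.03 ± 0.31, adjusted p = 0.02). Krt16, a keratin of stressed squamous epithelium, measured 21.3 and 8.56 TPM against 1.04 and 0.50 TPM, and Ncam1, a neural cell adhesion molecule, 43.3 and 21.97 TPM against 5.70 and 5.25 TPM. Gnb4, a G protein subunit, measured 15.7 and 11.5 TPM against 3.06 and 2.02 TPM, and Zfp969, a zinc finger gene, 9.93 and 9.58 TPM against 0 and 0.71 TPM. Of these 6 genes Fam19a5 lost its call without the first CD44high line (-5.02 to -3.64 over the 4 leave-outs), and the others in 2 to 4 leave-outs, with Ptgs2 at -1.66 without the first CD44low line. After median-ratio scaling Ptgs2 and Gnb4 were not called.

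Of the 15 genes called lower, 7 were models of small RNAs: 3 small nucleolar, 2 small nuclear, 1 small Cajal body-specific RNA and 1 microRNA precursor. All 7 were listed at 0 in both CD44high lines, so no fold is given. Gm26109 measured 36.0 and 73.9 TPM in the CD44low lines and was listed at 0 in the other 12 libraries, and Gm22710 measured 72.9 and 26.8 TPM in CD44low and 0 TPM in CD44high lines of both LN and BM. Short RNAs of this kind are poorly captured by poly(A)-primed cDNA and have near-identical copies among which the estimation can split reads, so these calls are uncertain.

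Proton transport and Wnt genes each held 1 called gene, where 0.215% of all genes were called higher. Of the 37 tested genes of pH regulation, 1 was called higher (Atp6v1b1), 5 lay above (13.5%, beside 10.7% of all genes) and 18 below (48.6%, beside 29.2%). The filter fixed the order of Atp6v1b1, which left 4 of 36 above. After scaling 5 lay above and 13 below (35.1%, beside 18.2% of all genes). Of the 18 tested subunits of the vacuolar proton pump among them, 13 lay below, 2 above (Atp6v1b1 and Atp6v1c2) and 3 overlapped, and after scaling 8 lay below. The differences of the common subunits were small, such as Atp6v0c at 414 and 454 TPM against 302 and 299 TPM. Of 21 tested Wnt genes 1 was called higher (Nkd2), 8 lay above (38.1%) and 5 below (23.8%). Lef1, a transcription factor of the pathway, measured 2.20 and 2.59 TPM against 9.98 and 8.15 TPM (adjusted p = 0.0532), and Lgr6, an R-spondin receptor and stem cell marker, 9 and 7.54 TPM against 1.34 and 1.61 TPM (difference -1.90, adjusted p = 0.0339, under the size limit of a call).

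No stem cell or surface marker was called. Of 23 tested, 9 lay above (39.1%, beside 10.7% of all genes), 6 below (26.1%, beside 29.2%) and 8 overlapped. The filter fixed the order of 2 of the 9, Prom1 and Itgb3, which left 7 of 21 above. Prom1, the surface protein CD133, measured 0.35 and 0.33 TPM in CD44low and 2.73 and 2.42 TPM in CD44high lines (difference 1.41 ± 0.26, adjusted p = 0.0477, under the size limit). Aldh3a1, an aldehyde dehydrogenase, measured 17.1 and 29.0 TPM against 106 and 69.1 TPM (adjusted p = 0.106), and Kit, a receptor of mammary progenitors, 0.24 and 2.32 TPM against 6.11 and 10.6 TPM (adjusted p = 0.251). Cd24a, often paired with CD44 in sorting, measured 1095 and 1711 TPM against 693 and 673 TPM (adjusted p = 0.222). Of the luminal epithelial markers, 6 of 10 lay above (10.7% of all genes) and none below, with Krt7 called, and without Prom1 5 of 9. Of the 9 tested mesenchymal markers 6 lay below (29.2% of all genes) and 1 above, with none called, and without Snai1, whose order the filter fixed, 5 of 8 lay below. After scaling 9 of the 10 luminal markers lay above (22.2% of all genes) and 3 of the 9 mesenchymal markers below (18.2%). Of 10 basal or myoepithelial markers 7 were under 1 TPM in all 4 libraries, with Krt5 listed at 0, and 2 were tested. The basal keratin gene Krt14 measured 12.6 and 28.8 TPM against 62.4 and 57.1 TPM (difference 1.59 ± 0.34, adjusted p = 0.0769). The myoepithelial marker Cnn1 measured 3.24 and 2.27 TPM against 4.61 and 4.23 TPM.

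**Figure D3:**
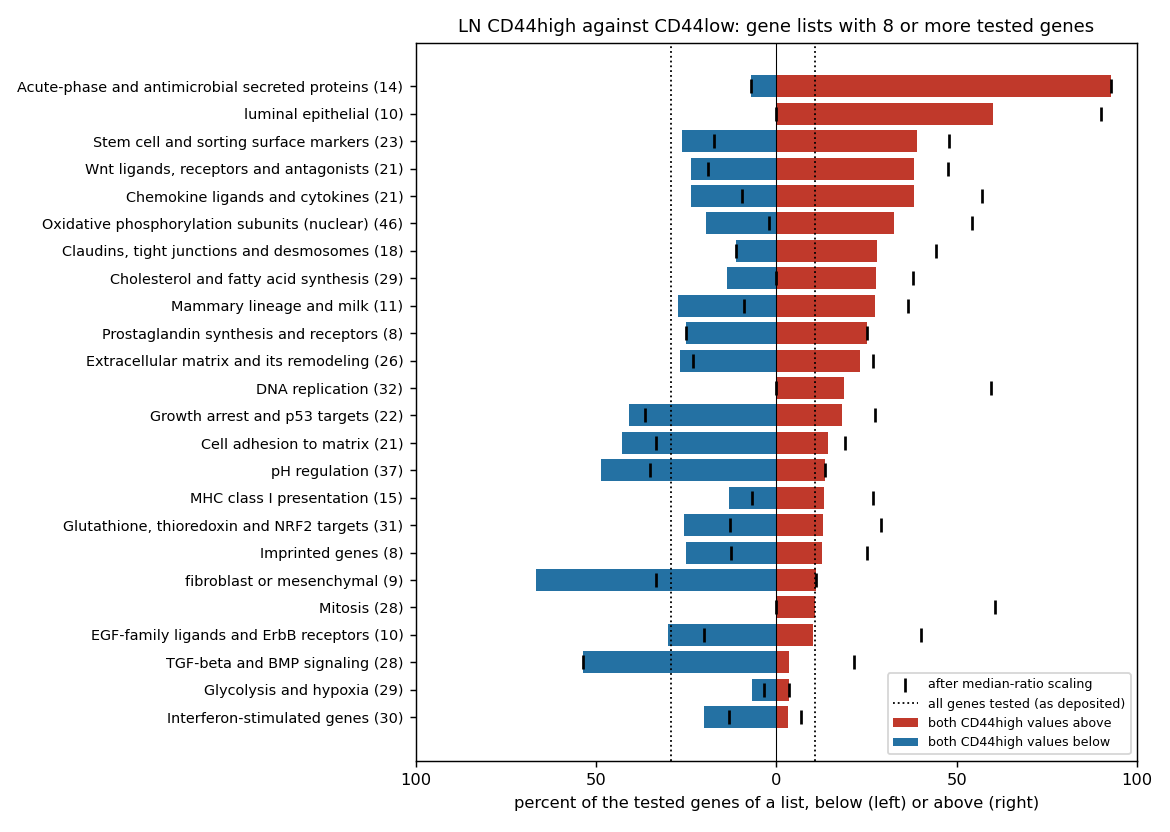
Percent of the tested genes of each list (rows, with the number tested) with both CD44high values above (red, right) or below (blue, left) both CD44low values. Dotted lines give all genes tested (10.7% and 29.2%), short bars the shares after median-ratio scaling, and the acute-phase list reaches 92.9% on the right and the TGF-beta and BMP list 53.6% on the left. The shares include genes whose order the filter fixed.

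Genes of cell division set the second CD44low line apart from the other 3. All 28 tested mitosis genes were lowest in the second CD44low line, where they were a median of 7.11-fold (2.60 to 12.4) below the lowest of the other 3 libraries. Birc5, the apoptosis inhibitor survivin that also guides chromosomes, measured 2496 and 345 TPM in CD44low and 3601 and 3645 TPM in CD44high lines, and Cenpa, the centromere histone, 163 and 13.8 TPM against 200 and 192 TPM. Of the 28 genes 25 overlapped, 3 lay above (10.7%, beside 10.7% of all genes) and none was called, although the median difference was 1.23. After scaling 17 of the 28 lay above (60.7%, beside 22.2% of all genes) and none below. Of 32 DNA replication genes 6 lay above (18.8%, beside 10.7% of all genes), none below and none was called, and after scaling 19 lay above (59.4%). The second CD44low line also had the highest values of the interferon-induced genes Ifit1, at 23.9 TPM beside 1.09 to 2.39 TPM in the other LN libraries, and Oasl1, at 14.3 TPM beside 0.64 to 2.05 TPM. The summed level of 31 glycolysis and hypoxia genes was 11024 and 29959 TPM in CD44low and 20336 and 17599 TPM in CD44high lines, and Bnip3, a hypoxia-induced gene of mitochondrial turnover, measured 26.4 and 518 TPM against 153 and 64.2 TPM. For this sum and for Bnip3 the CD44low lines thus lay on either side of the CD44high lines. The part of the second CD44low line in the other differences is shown only by the counts without that line given above.

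**Figure D4:**
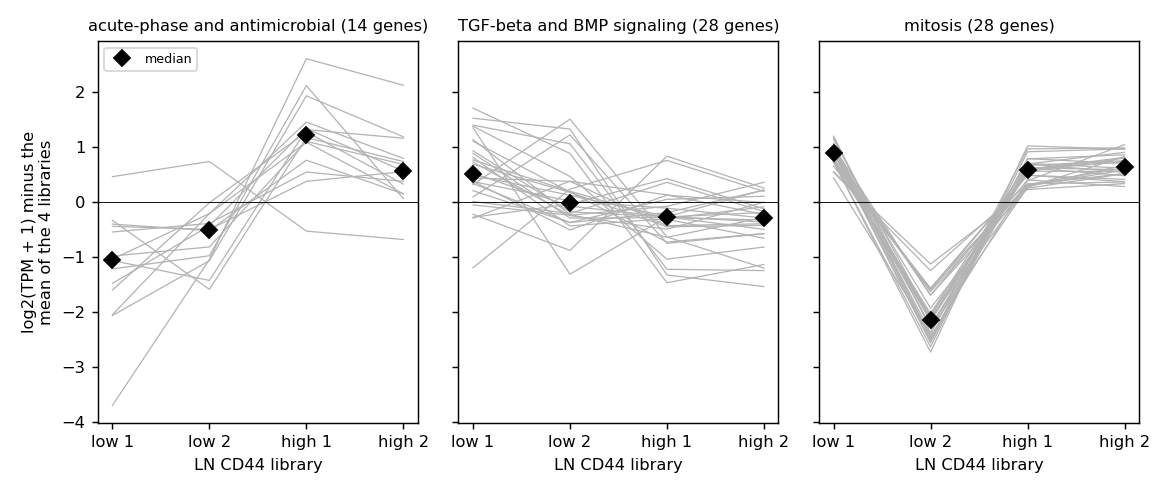
Values of the tested genes of 3 lists in each LN library, as log2(TPM + 1) minus the mean of the 4 libraries (y), with a grey line per gene and a diamond at the median. The acute-phase medians are below 0 in both CD44low and above 0 in both CD44high lines, while the mitosis genes drop in the second CD44low line alone.

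The rest of the lists are given by their counts, to be read against 10.7% of all genes above and 29.2% below. Counts after scaling are to be read against 22.2% above and 18.2% below. Of all genes, 0.215% were called higher and 0.124% lower. Of 26 tested matrix genes Postn was called higher, 6 lay above, 7 below and 13 overlapped, and 6 of 25 lay below without Mmp10, whose order the filter fixed. Spp1, the matrix cytokine osteopontin, measured 793 and 1595 TPM against 5930 and 4641 TPM (difference 2.22 ± 0.75, adjusted p = 0.299). Of 8 tested prostaglandin genes 2 lay above and 2 below, and only Ptgs2 was called. Of 5 tested squamous genes none lay above and 2 below, and only Krt16 was called. Of 29 cholesterol and fatty acid genes 8 lay above and 4 below (11 and 0 after scaling), and Scd1, a fatty acid desaturase, measured 34.4 and 35.5 TPM against 109 and 118 TPM (difference 1.67 ± 0.22, adjusted p = 0.0067, under the size limit). Of 18 junction genes 5 lay above and 2 below, and 3 of 16 above without Cldn1 and Marveld2, whose order the filter fixed. Those above included Tjp3, a tight junction scaffold of 1.43 and 2.88 TPM against 11.3 and 8.76 TPM (adjusted p = 0.035). Of 21 integrin and laminin genes 3 lay above and 9 below, and 2 of 20 above without Itgb3, whose order the filter fixed. Itgb1 measured 255 and 120 TPM against 66.1 and 89.0 TPM (limma adjusted p = 0.28). No gene was called in the following lists. Of 31 glutathione, thioredoxin and NRF2 genes 4 lay above and 8 below, and 3 of 30 above without Gsta3, whose order the filter fixed. After scaling 9 lay above (29.0%, beside 22.2% of all genes) and 4 below (12.9%, beside 18.2%). Sod3, a secreted superoxide dismutase, measured 2.83 and 6.78 TPM against 22.9 and 18.6 TPM (difference 1.99, limma adjusted p = 0.048). Of 46 nuclear oxidative phosphorylation genes 15 lay above and 9 below, and after scaling 25 and 1. Of 22 growth arrest and p53 target genes 4 lay above and 9 below. Of 10 EGF-family genes 1 lay above and 3 below (4 and 2 after scaling), including Areg, the ligand amphiregulin, at 224 and 86.3 TPM against 52.9 and 49.1 TPM (adjusted p = 0.312). The 11 mammary lineage and milk genes had 3 above and 3 below, the 15 MHC class I genes 2 and 2, and the 8 imprinted genes 1 and 2. The filter fixed the order of 1 of the 2 imprinted genes below, which left 1 of 7. None of the 6 genes of X inactivation or the Y chromosome was tested. Of 29 glycolysis and hypoxia genes 1 lay above, 2 below and 26 overlapped. Of 30 interferon-stimulated genes 1 lay above, 6 below and 23 overlapped. The filter fixed the order of 3 of those 6, which left 3 of 27 below.

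Of the genes that the study names for LN lines, Ptgs2 was called lower, as described above, and Cdh1, Ywhah and Irf5 were not called. Igfbp3, a carrier of insulin-like growth factors, had a TPM of 0 in each LN library and was not tested. Cdh1, the epithelial cadherin, measured 29.9 and 18.7 TPM in CD44low and 34.1 and 41.8 TPM in CD44high lines (adjusted p = 0.51). Ywhah, a 14-3-3 adaptor, measured 234 and 134 TPM against 270 and 295 TPM (adjusted p = 0.36). Irf5, an interferon regulatory factor, measured 2.43 and 0.66 TPM against 1.96 and 0.49 TPM, with overlapping groups.

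Levels in the other organs set these differences in place. For 25 of the 26 genes called higher, all 4 BM libraries, CD44low and CD44high alike, lay above both LN CD44low lines, a pattern of 8.20% of all genes. The exception was the pseudogene Gm16550, listed at 0 in both BM CD44high lines. All 4 BM libraries lay below both LN CD44low lines for 11 of the 15 genes called lower, beside 10.3% of all genes. Slc39a4 measured 32.8 to 56.5 TPM, Col2a1 223 to 287 TPM and Id1 37.3 to 58.7 TPM over the 4 BM libraries, and the LN CD44high lines lay in or close to these ranges. The mean of the LN CD44high lines fell within the range of the 4 BM libraries for 12 of the 26 higher genes, and the mean of the LN CD44low lines for 1. Since the called genes were chosen with the LN CD44low values, these counts are a description.

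The MFP and lung lines gave other pictures. Both MFP libraries lay above both LN CD44low lines for 6 of the 26 higher genes (35.0% of all genes) and below them for 7 of the 15 lower genes (18.2%). Ccl20 was highest of all in MFP lines, at 122 TPM in both, and Krt7 measured 724 and 466 TPM there. All 4 lung libraries lay above both LN CD44low lines for 2 of the 26 higher genes (21.5% of all genes) and below them for 9 of the 15 lower genes (22.4%). Epcam was at 0 to 0.86 TPM and Cdh1 at 0 to 0.03 TPM in the lung libraries, which are labelled EpCAMhigh as well. Across all genes tested the Spearman correlation with the 4 BM libraries was 0.871 to 0.955 for the first and 0.864 to 0.945 for the second LN CD44high line, and 0.852 to 0.906 and 0.823 to 0.920 for the LN CD44low lines.

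**Figure D5:**
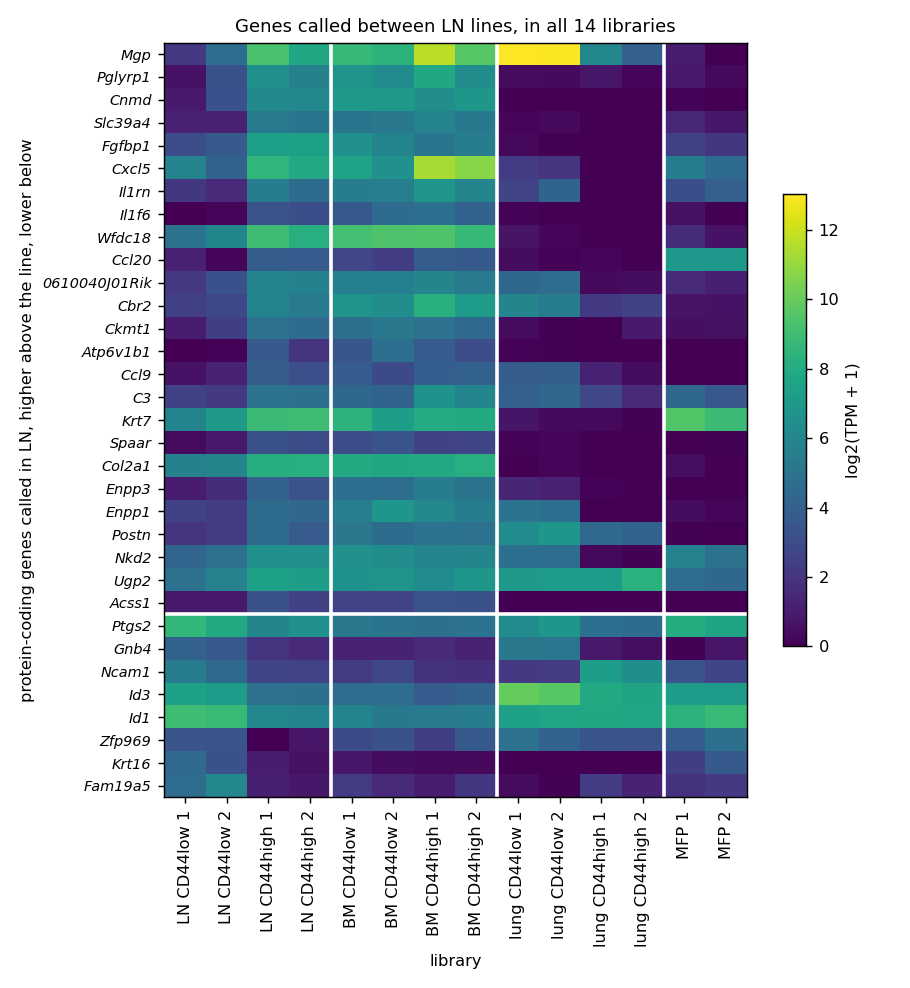
Level (color, log2(TPM + 1)) of the 33 protein-coding genes called between LN lines (rows, 25 higher above the white line and 8 lower below it) in all 14 libraries (columns, by organ and CD44 label). In the 25 rows of genes called higher, all 4 BM columns are above both LN CD44low columns.

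The CD44 order of these genes in BM and lung lines is given next. In BM both CD44high values lay above both CD44low values for 10 of the 26 genes (6.58% of all genes) and below for 5 (28.3%). Cxcl5 was called higher in BM too, at 184 and 96.9 TPM in CD44low and 2555 and 1685 TPM in CD44high lines (difference 3.95, adjusted p = 0.0443), and lower in lung (difference -2.12, adjusted p = 0.0176). In lung both CD44high values lay above for 1 of the 26 (32.5% of all genes) and below for 18 (35.4%). There 9 of the 26 genes were called lower, beside 840 of the 12107 genes tested. The 9 were Mgp, Cxcl5, Il1rn, 0610040J01Rik, Cbr2, Ccl9, Enpp1, Postn and Nkd2. Of the 15 genes called lower in LN, 6 lay below and none above in BM, where the small RNA genes Gm22710 and Gm24888 were called lower as well, although both were called higher in lung CD44high lines (differences 3.26 and 3.04), and 4 lay below and 4 above in lung. The LN difference minus the mean of the BM and lung differences was tested in the same fit, whereas LN against BM alone was not tested. In that test 24 of the 26 and 11 of the 15 genes had an adjusted p under 0.05 for it, beside 3.28% of all genes. The LN libraries enter both the call and this contrast, so the shares are not independent of the choice of genes. Fgfbp1 differed by 4.53 ± 0.41 (adjusted p = 0.00026), with CD44 differences of 3.97 in LN, -0.94 in BM and -0.19 in lung. Id1 differed by -2.88 ± 0.30 (adjusted p = 0.000617), with -2.87 in LN, -0.13 in BM and 0.16 in lung. Id3 differed by -1.10 ± 0.26 (adjusted p = 0.0482), since it was lower in the CD44high lines of lung as well, at 979 and 796 TPM in CD44low and 241 and 195 TPM in CD44high lung lines. Ptgs2 (adjusted p = 0.203) and Gnb4 (adjusted p = 0.874) did not pass this test, and Gnb4 differed by -4.52 between the lung lines.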

How the data were processed

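RNA-seq libraries of 14 cell line samples were made with a modified SMART-seq2 protocol. The authors aligned reads to mm10 with STAR, estimated abundances with RSEM on a GENCODE annotation, and deposited TPM per gene. All 55450 gene IDs were matched to GENCODE vM21. Log2(TPM + 1) was analysed with limma 3.58.1 (R 4.3.3; trend, 7 groups, 7 residual degrees of freedom), since TPM does not suit a count test, and the procedure was tested on simulated data. Groups follow the labels, and p-values are Benjamini-Hochberg adjusted over all genes tested. Genes were named by rule: the sort markers and genes the study names, up to 12 called protein-coding genes per direction by gap with at least 5 TPM in both libraries of the higher group, the extreme interactions among them, and called or most changed members of the lists. Other genes in the text were chosen after their values were seen. The comparison, members and lists were chosen with earlier results of these data known. Motif windows came from RefSeq. Single-cell files were not used here.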

Additional observations from a re-analysis of the deposited data

Results flagged for a closer look

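The values here are the LN CD44 difference (CD44high minus CD44low) minus the mean of the BM and lung differences, on the log2 scale, for genes whose adjusted p for this contrast was under 0.05 in limma. This was so for 24 of the 26 genes called higher and 11 of the 15 called lower, beside 3.28% of all genes tested. The LN libraries enter both the call and this contrast, so these shares are not independent of the choice of genes. Values follow for the called genes named by rule. Among the higher genes left out were the pseudogene Gm16550 at 7.92 and 0610040J01Rik at 5.14. Among genes called higher in LN and named by rule they were 8.05 for Mgp, 4.71 for Enpp1, 4.599 for Nkd2, 4.53 for Fgfbp1, 4.47 for Il1rn, 4.24 for Cnmd, 4.11 for Cbr2, 3.94 for Slc39a4, 3.85 for Pglyrp1, 3.78 for Ccl9 and 3.44 for Wfdc18. They were 3.16 for Postn, 3.15 for Atp6v1b1, 2.97 for Il1f6, 2.58 for Ccl20, 2.57 for Krt7, 2.47 for C3 and 2.37 for Col2a1. Among genes called lower and named by rule they were -4.89 for Fam19a5, -4.27 for Ncam1, -2.91 for Krt16, -2.88 for Id1 and -1.10 for Id3.

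Among listed genes not called in LN they were 5.31 for Sod3, 4.26 for Ldhb, 3.79 for Cnn1, 2.91 for Pdgfrb, 2.47 for Scd1, 2.17 for Egfr, 1.85 for Krt14 and 1.13 for Atp5o. For some of the flagged genes the lung lines differed widely between CD44 labels. Mgp measured 8436 and 8004 TPM in lung CD44low and 63.8 and 15.1 TPM in lung CD44high lines, and Ldhb 456 and 515 TPM against 3.89 and 3.99 TPM. Krt14, by contrast, was listed at 0 in all 4 lung libraries, so its lung difference was 0.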

How the results depend on the processing

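All 41 called genes kept their sign in every setting run. The counts called higher and lower were 26 and 15, and they were 24 and 23 with a pseudocount of 0.1, 16 and 11 with no filter on low TPM, 40 and 34 with a log2 threshold of 1, 3 and 10 with the 8 LN and BM libraries, and 1 and 1 with the 4 LN libraries alone (48 and 61 at an unadjusted p under 0.05). Leaving out 1 LN library gave 5 to 70 higher and 7 to 37 lower genes, 131 to 626 interactions, and 1791 to 4887 genes with both values above and 4477 to 7914 below. Without a filter 793 interactions passed in place of 397, and 2102 genes lay above and 5074 below. With a minimum of 5 TPM 854 lay above and 2538 below, and with median-ratio scaling 2690 and 2201. Replicate numbers are shared by label only, and lines with the same number did not deviate together (r = -0.112 across genes). With the replicate block 19 and 13 genes were called over 14 libraries and 0 and 0 in limma over the 4 LN libraries (58 and 77 unadjusted), and a crossed pairing chosen after seeing the data gave 20 and 12. Over the leave-outs the difference ran from -0.71 to 0.34 for Irf5, which was 0.34 without the first CD44low and 0.31 without the second CD44high line. It ran from -2.53 to 0.60 for Ndrg1, 0.60 without the second CD44low and 0.48 without the second CD44high line, and from -1.22 to 0.10 for Cd68, 0.10 without the second CD44high line. It ran from -3.08 to 0.49 for Ifit1 and from -2.77 to 0.35 for Oasl1, above 0 only without the second CD44low line. The causes were not tested. TPM keeps no depth, so counting error could not be given.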
